A study of Arabidopsis thaliana with 11 samples.

Results

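COBRA (COB) and 7 COBRA-like genes, COBL1, COBL2, COBL4, COBL5, COBL6, COBL9 and COBL10, were examined for peaks of the alpha-crystallin domain proteins ACD15 and ACD21 and of the methyl-CG-binding domain protein MBD6 in Arabidopsis thaliana inflorescences. Their loci are AT5G60920 (COB), AT3G02210 (COBL1), AT3G29810 (COBL2), AT5G15630 (COBL4), AT5G60950 (COBL5), AT1G09790 (COBL6), AT5G49270 (COBL9) and AT3G20580 (COBL10). They are 8 of the 27444 protein-coding genes of the annotation. A peak was counted for a gene when it shared at least 1 bp with a window from 2 kb upstream of the gene start to 1 kb past its end. The family was chosen by the score ranks of the COBL2 peak, which stood near the top of the ACD15 and ACD21 lists, so the values of that peak in those lists are given as a description.

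The libraries came from chromatin of Col0 inflorescences grown in long days (16 h light, 8 h dark). Batch 1 held 2 libraries of an ACD15.5-3XFLAG transgene, 2 of an ACD21.4-3XFLAG transgene and 1 without a transgene, all in wild type. Batch 2 held MBD6-RFP in wild type, MBD6-RFP in the acd15 acd21 double mutant, and wild type without a transgene, with 2 libraries each. The wild type and mutant MBD6-RFP libraries carried the same transgene. The sources used here name neither its promoter nor the number of independent lines. The antibody label reads anti-FLAG M2 for both batches, although the titles of batch 2 name RFP. Tag, antibody and batch therefore cannot be told apart between the FLAG and RFP libraries, and no level is compared across them. Peak lists of 8 libraries and 3 merged lists (ACD15, ACD21, and a union of MBD5 and MBD6 regions) were used, and no list of a control without transgene was used here. The parent lists of the MBD5/MBD6 union belong to no library of this series, and its name marks broad peaks. Its regions are therefore not calls of the libraries described here. The 8 lists held from 404 to 10946 regions, the fewest in MBD6-RFP acd15 acd21 replicate 2. Read depth is not known from peak lists, so a gene without a peak is one that was not called.

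COBRA proteins are plant proteins of the cell surface, most of them held there by a glycosylphosphatidylinositol anchor. COB is known for the oriented deposition of cellulose microfibrils in elongating cells, COBL2 for cellulose in the mucilage of the seed coat, COBL4 (IRX6) for secondary walls, COBL9 (SHV2) for root hair growth and COBL10 for pollen tube guidance. MBD6 and its paralogue MBD5 bind methylated CG sites, and ACD15 and ACD21 are part of the complex that they form on such DNA.

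The sequences that carried the results come first, because the peaks of COBL2 and COBL5 fell on DNA of unlike kinds. All are read 5′ to 3′ from TAIR10.1, with the strand given by the gene, in lower case with every CG dinucleotide in capitals. The COBL2 peak sequence is chr3:11726806-11727105 (plus strand), 300 bases around the highest summit of ACD15 replicate 1. The COBL2 start sequence is chr3:11727724-11728023 (plus strand), the 300 bases before the annotated start. The COBL5 sequence is chr5:24526320-24526531 (minus strand), the whole peak of ACD15 replicate 1.
COBL2 peak: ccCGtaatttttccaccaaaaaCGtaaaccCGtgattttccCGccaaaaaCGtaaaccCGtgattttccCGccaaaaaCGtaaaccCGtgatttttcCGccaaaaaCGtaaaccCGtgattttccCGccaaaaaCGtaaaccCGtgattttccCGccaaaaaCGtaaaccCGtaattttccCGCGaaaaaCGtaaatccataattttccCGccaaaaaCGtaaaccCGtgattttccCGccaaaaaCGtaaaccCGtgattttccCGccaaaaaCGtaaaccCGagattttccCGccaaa
COBL2 start: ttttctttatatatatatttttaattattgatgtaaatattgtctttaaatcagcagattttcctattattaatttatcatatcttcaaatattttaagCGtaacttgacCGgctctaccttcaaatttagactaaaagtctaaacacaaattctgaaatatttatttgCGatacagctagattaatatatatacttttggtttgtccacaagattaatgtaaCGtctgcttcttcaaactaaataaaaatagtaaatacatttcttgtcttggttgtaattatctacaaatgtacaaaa
COBL5 downstream peak: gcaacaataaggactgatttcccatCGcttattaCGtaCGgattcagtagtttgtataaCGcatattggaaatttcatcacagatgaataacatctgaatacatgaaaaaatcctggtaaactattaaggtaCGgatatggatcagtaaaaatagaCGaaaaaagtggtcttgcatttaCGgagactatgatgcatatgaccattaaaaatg
The COBL2 peak sequence held 31 CG sites, the 300 bases at the COBL2 start 4, and the 212 bases of the COBL5 sequence 7. Windows of 300 bp across the genome had a median of 6 CG sites, and 99.9% of the 397152 windows had fewer than 31. The COBL2 sequence was a chain of near-identical units, described after the peaks.

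Peaks within these windows were found at COB, COBL2, COBL5 and COBL9 in at least 1 of the 11 lists, which is 4 of 8 genes, where 45% of all protein-coding genes had one. COBL1, COBL4, COBL6 and COBL10 had none. In ACD15-FLAG, COB, COBL2 and COBL5 had a peak in replicate 1 (3 of 8, background 19.3% of protein-coding genes) and in replicate 2 (3 of 8, background 29.8%). In ACD21-FLAG, COB and COBL2 had one in replicate 1 (2 of 8, background 20.8%) and COBL2 in replicate 2 (1 of 8, background 12.4%). In MBD6-RFP, COBL2 was called in wild type replicate 1 (background 9.67%), wild type replicate 2 (background 2.19%) and acd15 acd21 replicate 1 (background 13.6%), and no member was called in acd15 acd21 replicate 2 (background 0.791%). The merged lists held 3 members for ACD15 (background 30.3%), 2 for ACD21 (background 20.8%) and 4 for MBD5/MBD6 (background 37.6%). Both replicates called 3 members in ACD15-FLAG (background 18.9%), 1 in ACD21-FLAG (background 12.3%), 1 in wild type MBD6-RFP (background 0.689%) and 0 in acd15 acd21 (background 0.138%). At least 1 of the 8 library lists held 3 members (background 38.3%). For so few genes these counts are a description, and in the RFP lists every call was COBL2.

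**Figure D1:**
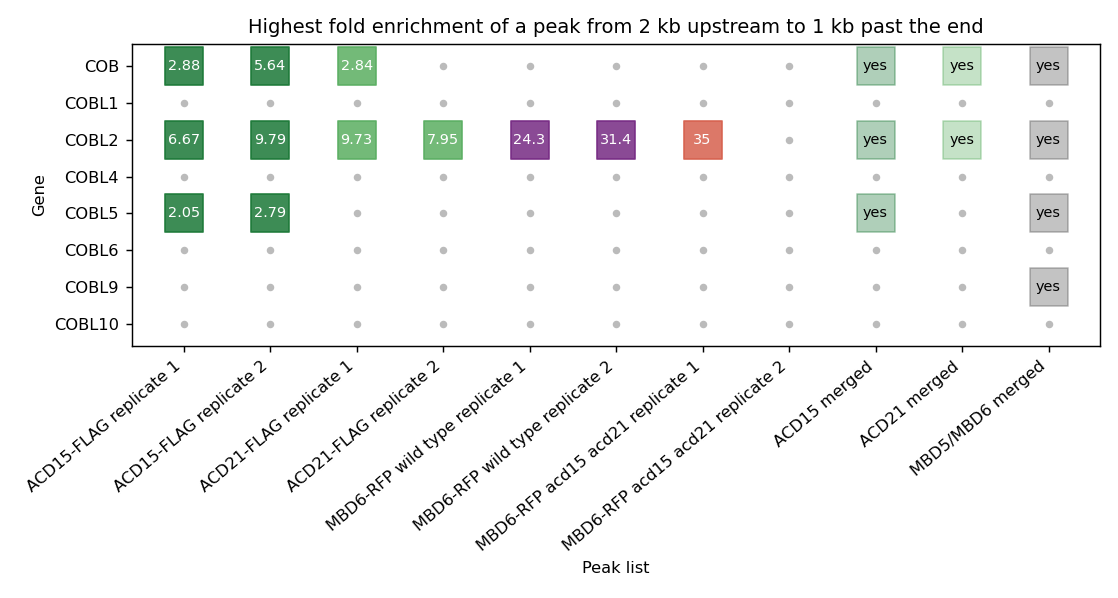
Highest fold enrichment of a peak for each gene (vertical axis) in each peak list (horizontal axis), within 2 kb upstream to 1 kb past the end. Squares with a number give the authors' fold, squares with "yes" mark merged lists without a fold, and grey dots mark no peak; COBL2 is filled in 7 of the 8 library lists.

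COBL2, at 3:11728024-11730350 on the plus strand, was the member with a strong upstream peak. The fold enrichment, which is the authors' peak caller's own value, was 6.67 and 9.79 in ACD15-FLAG replicates 1 and 2 and 9.73 and 7.95 in ACD21-FLAG replicates 1 and 2. In MBD6-RFP it was 24.3 and 31.4 in the wild type replicates and 35 in acd15 acd21 replicate 1, and there was no region in acd15 acd21 replicate 2. Among all regions of its list by fold, the peak ranked 59 of 5661 and 42 of 10946 for ACD15 and 1 of 6774 and 4 of 3571 for ACD21. It ranked 47 of 3492 and 7 of 1244 for MBD6-RFP in wild type and 1 of 3987 in acd15 acd21 replicate 1. Both ACD21 values lay between the ACD15 values, so these groups overlapped.

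Read against its own list, the COBL2 fold was 2.81 and 3.58 times the median region of the ACD15 replicates and 3.97 and 3.37 times that of the ACD21 replicates. For MBD6-RFP it was 5.24 and 7.76 times the median in wild type and 8.78 times in acd15 acd21 replicate 1. The median fold itself ran from 2.36 to 2.73 in the FLAG lists and from 2.81 to 4.64 in the RFP lists. Of all protein-coding genes, 11.7% had a peak in every FLAG library, as COBL2 did, and 130 genes (0.474%) had one in the same 7 libraries. A peak in all 8 libraries was found at 7 genes (0.0255%) and at 0 members.

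**Figure D2:**
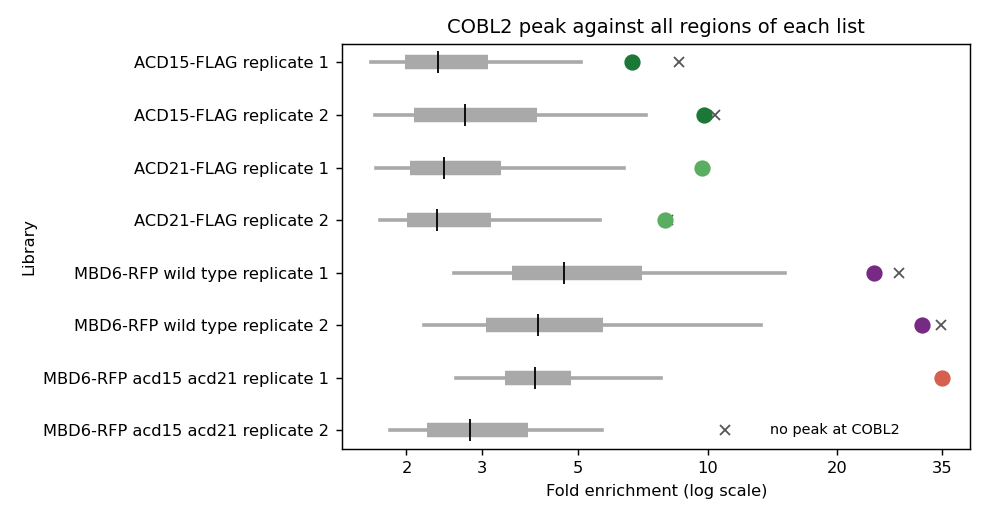
Fold enrichment (log scale, horizontal) of the COBL2 peak (coloured circle) in each library (vertical), beside all regions of that list: the tick is the median, the thick bar the middle 50%, the thin line the 5th to 95th percentile, and the cross the highest region. The circle lies beyond the thin line in 7 libraries, and acd15 acd21 replicate 2 has none.

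For ACD15-FLAG beside ACD21-FLAG, the mean at COBL2 was higher in ACD21 on both scales, and only the overlap of the replicates differed. The mean log2 fold was 3.01 ± 0.39 for ACD15 and 3.14 ± 0.21 for ACD21 (SD, n = 2 each), a difference of -0.12 that was smaller than either SD. By the percentile of the score within each list, ACD15 stood at 98.9 and 99.5 and ACD21 at 100 and 99.9, a mean difference of -0.73 percentage points with no overlap. These lists chose the family, so both differences are a description with no test.

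For MBD6-RFP in acd15 acd21 against wild type the members with a peak numbered 1 and 0 against 1 and 1, a mean difference of -0.50 members. With these counts every split of the 4 libraries gives a difference of the same size, so an exact permutation test can say nothing about them. The labels do not say that equal replicate numbers pair RFP libraries, and the replicates are set side by side by number only. A COBL2 peak was called in mutant replicate 1 and not in mutant replicate 2. In replicate 1, the fold was 24.3 in wild type and 35 in the mutant, a log2 difference of 0.53. The highest fold of any region was 27.8 in that wild type list and 35, that of COBL2, in the mutant list. The part of these unlike upper ends in the differences was not tested. The 1858 wild type regions shared by both replicate 1 lists had a median log2 difference of -0.19, 36.8% of them were higher in the mutant, and 6.57% had a larger difference than COBL2. In replicate 2, COBL2 ranked 7 by fold in wild type and was not called in the mutant. Of the 7 wild type regions at or above its rank, COBL2 among them, 0 were in that mutant list, while 23.6% of all 1244 wild type regions were. These 7 are not independent of COBL2, since 5 of those above it were arrays of its repeat, described below. That mutant list had a peak at 0 of the 74 arrays. The highest fold in that mutant list was 11 and its lowest 1.46. The peak numbers of the regions on either side of COBL2 in that list, 21725 bp and 273266 bp away from the window, were consecutive. Whether a filtering step had a part in the missing peak was not tested. The lower count of regions in this library, 404 against 3987 in the other mutant library, moves with the missing COBL2 peak, and its part in the result was not tested.

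The 7 peaks were of different widths and shared 1 summit position. Regions ran from 707 bp in wild type MBD6-RFP replicate 2 to 1821 bp in ACD15 replicate 2. Their highest summits nevertheless lay between 1029 and 1089 bp upstream of the COBL2 start, 60 bp apart over 7 libraries. All lay inside the pseudogene AT3G29805, which runs on the minus strand at 3:11726640-11727261. Among 105 sets of regions called in the same 7 libraries, the median span of summits was 93 bp, and 34.3% had a span no wider than that of COBL2.

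Smaller summits flanked the main one on the far side from the gene. In ACD15 and ACD21 they lay 1601 to 1974 bp upstream, with folds of 1.56 to 3.45. In acd15 acd21 replicate 1, MBD6-RFP also had a separate region within the COBL2 gene body, 1009 bp past the start, with a fold of 2.83 (rank 3621 of 3987 by fold). The MBD5/MBD6 list held 1 broad region of 4401 bp over this upstream sequence, 3:11723208-11727608, with MBD5 and MBD6 both as parents. The median region of that list was 748 bp, and 3.06% were wider.

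**Figure D3:**
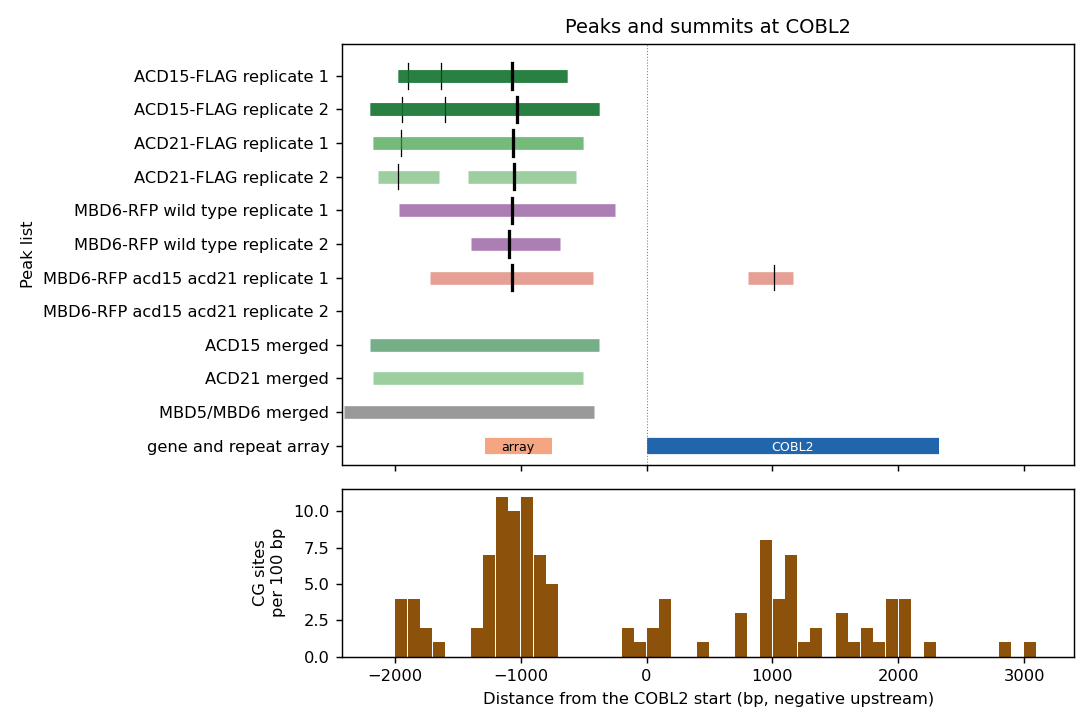
Upper panel: peak regions (bars) and summits (vertical ticks, thick for the highest) of each list at COBL2, by distance from the gene start in bp, with the gene and the repeat array marked on the last row and the broad MBD5/MBD6 region cut at the left edge. Lower panel: CG sites per 100 bp along the same axis, which peak under the summits.

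The COBL2 peak fell on a tandem array rich in CG sites. The sequence matched itself at 94.9% of bases when shifted by 28 bp, against 50.6% at the best other shift that was not a multiple. One unit of the array is shown here because all 7 summits fell within the array, with CG in capitals, at chr3:11726737-11726764 on the plus strand of TAIR10.1.
COBL2 array unit: ccaaaaaCGtaaaccCGtgattttccCG
This unit has 3 CG sites in 28 bp, and the array held 7 exact copies of it. Allowing up to 4 mismatches a copy, gaps of up to 100 bp and at least 5 units, the array had 15 units over 535 bp, from 753 to 1287 bp upstream of the COBL2 start. All 7 highest summits lay inside it. Around the summits, 300 bp held 31 to 33 CG sites, while the median region had 9 to 11 in the FLAG lists and 13 to 21 in the 3 RFP lists with a COBL2 peak. At least 94.9% of the regions of each of those lists had no more CG sites than COBL2 did. Methylation was not measured in these files.

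The same unit occurred elsewhere in the genome. There were 94 exact copies and 1051 copies with up to 4 mismatches in the genome, inside or outside arrays. By the rule above, 74 arrays were found, and they covered 0.0266% of the genome. The arrays had a median of 13.5 units and at most 27, and 23 had more units than that of COBL2. Within the windows of all protein-coding genes, 49 genes (0.179%) held an array, and COBL2 was the 1 member among them. The search was made after the repeat was seen in the COBL2 sequence.

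Most of these arrays carried peaks in the same libraries as COBL2. The unit was taken from under a peak, and no share for other stretches of like length or CG content is given beside these counts. A peak covered 65 and 65 of the 74 arrays in ACD15-FLAG, 65 and 70 in ACD21-FLAG, and 67 and 65 in wild type MBD6-RFP, replicate 1 first. In acd15 acd21 replicate 1 it covered 64, and in acd15 acd21 replicate 2 it covered 0. Of the 74 arrays, 52 had a peak in exactly 7 libraries and 0 in all 8. Regions with an array had a median fold of 4.78 and 8.12 in ACD15, where the other regions had 2.35 and 2.72. In ACD21 it was 9.07 and 6.35 with an array and 2.43 and 2.34 without. For MBD6-RFP the median was 24.3 and 16.9 in the wild type lists and 17.5 in acd15 acd21 replicate 1, where regions without an array had 4.58, 3.92 and 3.98. Arrays with a fold above that of COBL2 numbered 3 and 4 in ACD15, 0 and 1 in ACD21, 33 and 5 in the wild type MBD6-RFP lists and 0 in acd15 acd21 replicate 1. In the 62 arrays with a peak in both replicate 1 RFP lists, the median log2 difference between mutant and wild type was -0.35, and 17 were higher in the mutant, COBL2 among them.

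**Figure D4:**
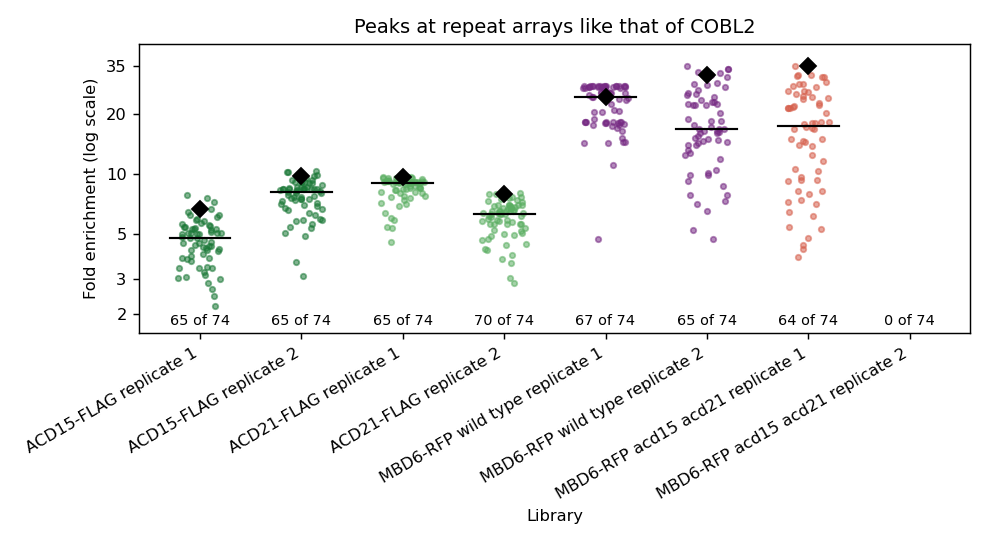
Fold enrichment (log scale, vertical) of the peak at each repeat array like that of COBL2 in each library (horizontal), with the COBL2 array as a black diamond, the median as a line, and the number of arrays with a peak at the foot. Between 64 and 70 of the 74 arrays had a peak in 7 libraries, and 0 in acd15 acd21 replicate 2.

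Repeated sequence also bears on how reads can be placed. The 1669 bp region of ACD21 replicate 1 matched 115 other loci at 80% identity or more over at least 100 bp. Of these, 97 lay in a merged ACD15 region, 94 in a merged ACD21 region and 102 in an MBD5/MBD6 region, with no share for other sequence beside them. The longest match ran over 1263 bp at 86.1% identity on chromosome 1, at 7985126 to 7986386. The sources used here do not say how reads that map to several places were treated, and its part in the folds at COBL2 was not tested. The peak also lay in a gene-poor stretch, where 6.74% of the 100 kb bin was coding, against 36.5% to 45.3% for the other 7 genes.

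COB, at 5:24511152-24514338 on the minus strand, was called past its end and not at its start. The fold was 2.88 and 5.64 in ACD15-FLAG replicates 1 and 2 and 2.84 in ACD21-FLAG replicate 1, and summits lay 1150 to 1156 bp past the end. Only 17 to 84 bp of these regions fell in the window. ACD21-FLAG replicate 2 had a region at the same place with a fold of 2.2, whose near edge lay 1021 bp past the end, so that it fell just outside. All 4 FLAG libraries therefore had a region here, at percentiles of 38.8 to 88.8 by score in their lists. The MBD5/MBD6 region at this place had MBD5 as its parent and not MBD6, and no MBD6-RFP peak lay within 17179 bp of COB.

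COBL5, a short family member at 5:24526847-24528151 on the minus strand, lies 12508 bp from COB and was called in ACD15 and not in ACD21. The fold was 2.05 and 2.79 in ACD15-FLAG replicates 1 and 2, at percentiles of 29.9 and 51.5, and the summits lay 425 and 420 bp past the gene end. That position is inside the neighbouring gene AT5G60945, which the annotation places in the ECA1 gametogenesis related family. No ACD21 region lay within 14307 bp, and whether ACD15 and ACD21 differ here was not tested. The MBD5/MBD6 list held a region at the same place with both parents. It held a further one at 5:24530123-24531385 with both parents, 29 bp of which fell in the upstream window, at AT5G60964, also of the ECA1 family. The ACD15 replicate 2 region matched 1 other locus over 332 bp at 91% identity, inside that further MBD5/MBD6 region. That locus also lay in a merged ACD15 region and in no merged ACD21 region. The part of reads that could map to both places in these calls was not tested.

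COBL9, at 5:19971884-19974530 on the minus strand, entered through 6 bp of an MBD5/MBD6 region, 5:19970074-19970889. The FLAG libraries had regions in the same place, 1060 to 1114 bp past the end and so just outside the window. Their folds were 3.5 and 5.64 for ACD15 and 4.59 and 3.17 for ACD21, with 16 to 17 CG sites around the summits. COBL9 and COB thus stood on either side of the limit of 1 kb past the end, and no MBD6-RFP peak lay within 41012 bp of COBL9. With a window to 2 kb past the end, ACD15-FLAG had 4 members in each replicate (background 21.8% and 33.3%), and ACD21-FLAG had 3 in each (background 23.4% and 14.2%). The 3 genes with such downstream peaks lie on chromosome 5, and COBL2 is on chromosome 3.

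**Figure D5:**
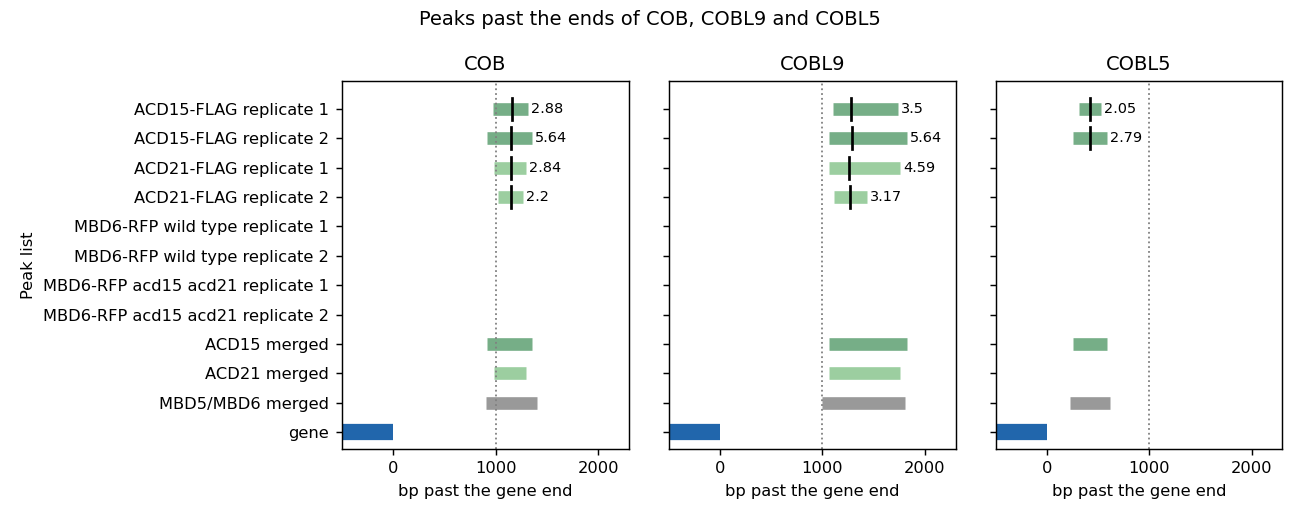
Peaks past the ends of COB, COBL9 and COBL5, by distance past the gene end in bp (horizontal), for each list (vertical); ticks mark summits, numbers give the fold, and the dotted line is 1000 bp, the limit of the window. COB and COBL9 had regions in all 4 FLAG libraries near that line, COBL5 in both ACD15 libraries, and none was in an MBD6-RFP list.

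The other members had no region in any list within the window. The nearest region of any list lay 10662 bp from COBL1, 10368 bp from COBL4, 9355 bp from COBL6 and 3240 bp from COBL10. At COBL10 the nearest region came from ACD15-FLAG replicate 2, upstream, with a fold of 2.58. The gene body of COBL9 had 4.87 CG sites per 100 bp and that of COBL10 3.8, against 2.06 in COBL2, and neither COBL9 nor COBL10 had a region in its body. The upstream 2 kb of COBL2 had 3.4 CG sites per 100 bp and that of COBL5 3.45, the 2 highest values of the 8 genes.

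Genes whose FLAG folds were most like those of COBL2 were sought among 3211 others with a peak in all 4 FLAG libraries, by Euclidean distance over the 4 log2 folds (median distance 2.62). They were SARK at 0.04, CYP71B32 and AT3G53310, which share a region, at 0.06, EMB2820 at 0.08 and emb2444 at 0.09. None of their regions held an array of the COBL2 unit. In wild type MBD6-RFP replicate 1 the folds were 22.6 at SARK, 21.1 at the CYP71B32 region and 27.8 at EMB2820, beside 24.3 at COBL2. In acd15 acd21 replicate 1, MBD6-RFP had a fold of 7 at SARK, 23.7 at the CYP71B32 region and 33.1 at EMB2820, beside 35 at COBL2. In wild type replicate 2, where COBL2 had 31.4, they had 7.6, 11.2 and 7.6. At emb2444 MBD6-RFP had 7.61 in wild type replicate 2 and 2.96 in acd15 acd21 replicate 2, where COBL2 had no region, and none in either replicate 1 list.

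Among 19 other genes of cellulose synthesis and the COBRA family, peaks were found at 5 and 6 in ACD15-FLAG and 6 and 2 in ACD21-FLAG, replicate 1 first. MBD6-RFP lists held 4 and 1 of them for wild type, then 4 and 0 for acd15 acd21; the background shares are those given above for the family. The one called in the most libraries was CESA9, a cellulose synthase subunit, with a region past its end, at 2:9290144-9290567 in ACD15 replicate 1. Its folds were 5.24 and 8.33 for ACD15 and 6.55 and 4.95 for ACD21, with 18.5 in wild type MBD6-RFP replicate 1 and 12.7 in acd15 acd21 replicate 1, and the summits lay 614 to 638 bp past the end. Where COBL2 had a higher MBD6-RFP fold in the mutant of replicate 1, CESA9 had a lower one. COBL7 had regions in its gene body in ACD15 replicate 2 and both ACD21 libraries, with folds of 2.74, 3.2 and 2.02, and one of 5.04 in wild type MBD6-RFP replicate 2. CESA5, another subunit, and CC1, a companion of cellulose synthase, had regions near or past their ends in both ACD15 libraries and ACD21 replicate 1, with folds of 2.09, 4.42 and 2.83, and 3.06, 4.99 and 2.5. CESA5 also had a region at that place in wild type MBD6-RFP replicate 1, with a fold of 6.35. At CESA1, regions upstream of the start had folds of 2.15 in ACD15 replicate 2, 2.25 in ACD21 replicate 1 and 5.57 in acd15 acd21 replicate 1, and wild type MBD6-RFP replicate 1 had one of 2.68 in the gene. CESA6 had weak regions within the gene, at 1.69 in ACD15 replicate 1 and 1.73 in ACD21 replicate 1. CTL2, a chitinase-like gene, was called through a region with its summit 2457 to 2468 bp upstream, at 6.09 in ACD15 replicate 2 and 10.2 in wild type MBD6-RFP replicate 1.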

How the data were processed

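Chromatin immunoprecipitation libraries from inflorescences were analysed from peak lists. Per the submitters' processing notes, the tools were MACS2 2.1.0, deepTools 3.0.2, HOMER, Bowtie2, Trim Galore and Picard, on TAIR10, with no order or settings stated. The authors deposited 1 list for each library, called without pooling, as well as 3 merged ones. In a library list, the score of each peak, its fold enrichment (a ratio) and its -log10 p and -log10 q values are the authors' own, as deposited. Names of the FLAG lists say that control peaks were removed, and names of the RFP lists that unspecific regions were. Removed regions could hide a peak. The lists hold no depth, so no precision from depth is given.

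Entries with the same start and end were joined into 1 region, and starts were made 1-based. The members and the gene lists were chosen with earlier results of these data known. Named genes were the 8 members, genes in their windows or under their summits that are described, listed cellulose genes called in both replicates of 1 group or in 2 libraries, and the 5 genes with the folds most like those of COBL2. The search for the COBL2 repeat, the window to 2 kb past the end and the stricter repeat search were chosen after seeing the data. Sequences and genes came from the TAIR10.1 RefSeq genome; Python 3.11.15, numpy 2.4.6, pandas 2.3.3 and BLAST+ 2.17.0 were used. The sequence under the region past the COB end is not reported here. Planned two-sided exact permutation tests of libraries (2 against 2, smallest p 0.33) are not read, since the FLAG lists chose the family and the RFP counts can only give 1. No label states that replicates were grown or harvested separately, and the spread between them may be technical. The overlap of peaks with gene windows was tested on simulated data.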

Additional observations from a re-analysis of the deposited data

How the results depend on the processing

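The count of members with a peak moved with the window and the call rule. With a window from 1 kb upstream to the gene end, 1 member was left in both ACD15-FLAG lists, ACD21-FLAG replicate 1 and the 3 merged lists, namely COBL2 (11.8% to 26.1% of all protein-coding genes in these lists). With the gene body alone, 0 were left in the 4 FLAG lists, the 2 wild type MBD6-RFP lists and the 3 merged lists (0.609% to 14.9% of all). MBD6-RFP acd15 acd21 replicate 1 kept 1 under that rule, COBL2 (6.47% of all). With the summit or centre, or at least 50% of the region, in the window, 1 was left in ACD21-FLAG replicate 1, merged ACD21 and MBD5/MBD6 (COBL5 in the last, COBL2 in the others; 19.2% to 32.3% of all). Under these rules ACD15-FLAG replicates 1 and 2 each kept 2, COBL2 and COBL5, and lost COB (18% and 27.5% of all). With a fold of at least 3, 1 was left in ACD15-FLAG replicate 1 and in ACD21-FLAG replicate 1 (6.78% and 8.74% of all). With a window to 2 kb past the end, ACD21-FLAG replicate 2 had 3 (14.2% of all).

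Leaving out 1 library of a group leaves the count of the other library alone, as given above. This was 3 in either case for ACD15-FLAG and 1 or 2 for ACD21-FLAG. For MBD6-RFP it was 1 in either case in wild type and 0 or 1 in acd15 acd21. For differences between groups, the same replicate number was left out of both groups. This left 2 libraries, set side by side by number only, and other combinations are not shown. The COBL2 difference between ACD15 and ACD21 then ran from -0.55 without replicate 2 to 0.30 without replicate 1, so its direction turned. The genotype difference in members ran from -1 without replicate 1 to 0.00 without replicate 2. With a replicate block, the COBL2 difference was -0.12 and the genotype difference -0.50, as without it. In this balanced layout a block cannot change a mean difference, so the equal values carry no information. The correlation of the replicate differences between groups was -0.096 over 2259 regions in all 4 FLAG libraries and 0.534 over 11 regions in all 4 RFP libraries. With 2 pairs and no label that ties the numbers to a batch or plant, neither set is treated as paired. Repeat arrays with at most 2 mismatches a copy had peaks in 95.2% of cases in wild type MBD6-RFP replicate 2 and 92.1% in acd15 acd21 replicate 1, against 87.8% and 86.5% with 4. Narrower windows and stricter calls leave out regions by construction; the cause of the other changes was not tested. Peak lists without depth, control lists or more than 2 libraries a group limit every comparison.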
